A study of Rattus norvegicus with 18 samples.

Results

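The RNAs of the amyloid precursor family, of the enzymes that cut it and of 2 apolipoproteins were followed in primary rat cortical neurons after depletion of CHD5, a chromatin remodeling ATPase found mainly in neurons. The 9 genes listed were App, Aplp1, Aplp2, Bace1, Adam10, Psen2, Ncstn, Apoe and Clu. They were chosen by their symbol in the annotation of the Illumina rat array, and where a gene had several probes the one with the highest mean signal was used. Of the 9, 8 were found by symbol, among 21563 distinct gene symbols on 22523 probes. Aplp1 had no probe under its own symbol. The probe listed as RGD1561211_predicted carries the gene identifier that RefSeq now assigns to Aplp1, so its values are given beside the others but are left out of the counts.

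The cultures were grown from dissociated rat cortex, and every culture received a lentivirus for 6 hours on day 1. In the CHD5 shRNA cultures the virus expressed shRNA against CHD5, and in the control cultures it expressed a scrambled shRNA from the same vector, pLKO.1. The cells were then lysed for RNA on day 5, day 9 or day 12. With replicates a, b and c for each combination of virus and day, there were 18 arrays in 6 groups of 3. The array annotation lists Chd5 for 0 probes, which left the depletion itself unchecked on these arrays. The paper reports shRNA that lowered CHD5 protein in primary rat neurons, and CHD5 mRNA that fell with the knockdown. No step that selects infected cells is described in the sources used here. The labels do not say whether the replicates came from separate cultures, so the p-values measure the spread between these samples.

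APP and its relatives APLP1 and APLP2 are membrane proteins with a large outer part and a short tail inside the cell. ADAM10 cuts APP within the amyloid beta sequence, whereas BACE1 cuts at its start, after which gamma-secretase, with PSEN2 as a catalytic subunit and nicastrin (NCSTN) as a scaffold, releases amyloid beta. APOE and clusterin (CLU, also called ApoJ) are secreted lipid carriers that bind amyloid beta, and in the brain astrocytes are a main source of both.

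The 50-base probes of both apolipoproteins, which carry the changes described below, and of App, the substrate of the secretases, are printed here, because each value is the brightness of such a sequence. No part is marked. All 3 probes lie in the coding part of the transcript, and the App probe covers codons of the tail that the major splice forms share.
Apoe: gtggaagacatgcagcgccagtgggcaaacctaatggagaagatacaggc
Clu: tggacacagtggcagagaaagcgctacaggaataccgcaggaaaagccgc
App: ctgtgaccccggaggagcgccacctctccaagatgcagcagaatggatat
The array annotation places the Apoe probe at 79003801 to 79003850 on the minus strand of chromosome 1 and the App probe at 24457898 to 24457947 on the minus strand of chromosome 11. The Clu probe crosses an exon junction on the plus strand of chromosome 15, with 49 bases at 39871335 to 39871383 and its last base at 39871673. The genome build of these positions is not given in the sources used here. The 3 probes have a like base composition, 54.0%, 56.0% and 58.0% G or C for Apoe, Clu and App.

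Values are bead signals averaged per probe, put on the log2 scale and brought to the same mean and spread on every array over the 11079 probes that were detected on at least 1 array. They are called the normalised log2 signal. A difference is therefore in log2 units. It was tested with limma over all 6 groups and is written as called where the Benjamini-Hochberg adjusted p over all 11079 probes was under 0.05. A single array was much dimmer than the rest, the control of day 9, replicate b, and is called the dim array. Its mean signal was 134.8 (other arrays 400.2 to 789.3), it detected 7047 probes (others 8360 to 9931), and the SD of its log2 signals was 0.90 (others 1.56 to 1.88), so that bringing it to the common spread widened its values. Where leaving it out changed a call or moved a value much, the value without it is given. All 8 genes passed the detection filter and 4 of them, App, Aplp2, Apoe and Clu, were detected on all 18 arrays, as was Aplp1, whereas Bace1, Adam10, Psen2 and Ncstn were detected on 17, the exception being the dim array. Levels were compared only within a probe.

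**Figure D1:**
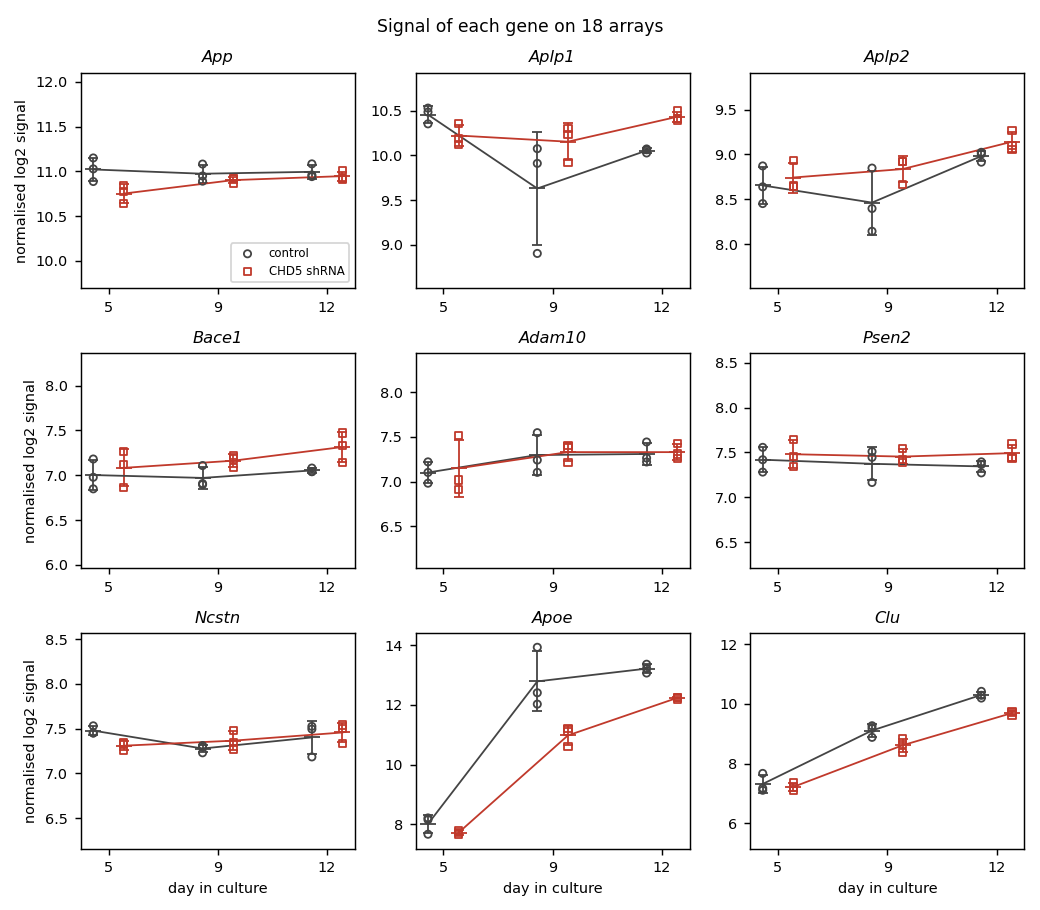
Normalised log2 signal (vertical axes) of each gene on the control arrays (circles) and the CHD5 shRNA arrays (squares) at days 5, 9 and 12; horizontal ticks are means of 3 arrays and bars are SD. The vertical axes of Apoe and Clu span more than those of the others. Apoe and Clu climb with the days and sit lower with CHD5 shRNA at days 9 and 12.

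The precursor itself showed no called difference. App lay at 10.89, 11.03 and 11.15 in the day 5 control arrays and at 10.64, 10.84 and 10.77 in the day 5 CHD5 shRNA arrays. At day 9 it lay at 10.89, 11.08 and 10.95 in the control and at 10.92, 10.92 and 10.86 with CHD5 shRNA. At day 12 the values were 10.94, 11.08 and 10.96 in the control and 10.91, 11.00 and 10.92 with CHD5 shRNA. The 2 groups did not overlap at day 5, where all 3 CHD5 shRNA arrays were lower, and they overlapped at days 9 and 12.

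The App difference between CHD5 shRNA and control was -0.27 ± 0.09 (SE) at day 5, with a limma adjusted p of 0.476. It was -0.07 (95% interval -0.27 to 0.12) at day 9, or -0.02 without the dim array, and -0.05 (-0.24 to 0.15) at day 12. Between days 5 and 12 App changed by -0.03 (-0.22 to 0.17) in the control and by 0.19 (-0.0009 to 0.39) with CHD5 shRNA, and neither was called (limma adjusted p of 0.876 and 0.177).

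Aplp2, whose protein overlaps APP in function, was called in no contrast of the fit to all arrays. Its day 9 control arrays were spread from 8.14 to 8.85, the lowest being the dim array, and its CHD5 shRNA arrays from 8.67 to 8.92. The difference was 0.09 at day 5, 0.37 at day 9 (0.06 to 0.69, limma adjusted p of 0.162) and 0.16 at day 12. Leaving out the dim array gave 0.22 for Aplp2 at day 9 (limma adjusted p of 0.326), and leaving out control replicate a in its place gave 0.56, which was called (0.0135). At day 12 the 3 CHD5 shRNA arrays (9.05, 9.27 and 9.10) were above the 3 control arrays (8.91, 9.01 and 9.02). From day 5 to day 12 Aplp2 differed by 0.33 in the control and by 0.40 with CHD5 shRNA (limma adjusted p of 0.136 and 0.0821). Both changes were called without the dim array (0.33 and 0.41, limma adjusted p of 0.041 and 0.0172), with quantile normalization and with neqc.

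Aplp1, which is found mainly in neurons, behaved unlike App on the probe read through its gene identifier. The control arrays lay at 10.48, 10.35 and 10.53 on day 5, at 10.07, 8.90 and 9.91 on day 9 and at 10.06, 10.03 and 10.07 on day 12. With CHD5 shRNA they lay at 10.35, 10.12 and 10.19, at 10.23, 9.92 and 10.30, and at 10.38, 10.49 and 10.41. All 3 CHD5 shRNA arrays were thus above the control arrays at day 12 but not at day 5 or 9. The fall in the control from day 5 to day 9, -0.82 (limma adjusted p of 0.0072), was called, and without the dim array it was -0.47 (0.00363). The difference between CHD5 shRNA and control was -0.23 at day 5, 0.52 at day 9 (limma adjusted p of 0.14) and 0.38 at day 12 (0.394). With the dim array left out it was 0.16 at day 9, and at day 12 it was 0.39 and called (limma adjusted p of 0.0109). The change of the Aplp1 difference from day 5 to day 12, 0.61 (limma adjusted p of 0.716), was called without the dim array as well, at 0.62 (0.0185), as was the change from day 5 to day 12 in the control (-0.40 with and -0.41 without it, limma adjusted p of 0.171 and 0.00235).

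The RNAs of the secretases were dim and varied little. Bace1, the beta-secretase, ranged from 6.85 to 7.47 over the 18 arrays, Adam10, an alpha-secretase, from 6.92 to 7.55, Psen2 from 7.17 to 7.65 and Ncstn from 7.18 to 7.54. None of the 4 was called between CHD5 shRNA and control on any day, nor between any 2 days in either culture.

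Bace1 was the secretase with the largest difference, 0.08 at day 5, 0.19 at day 9 and 0.26 at day 12 (95% interval 0.01 to 0.51, limma adjusted p of 0.278). Its day 12 control arrays lay at 7.08, 7.04 and 7.04 and its CHD5 shRNA arrays at 7.14, 7.47 and 7.33, so those groups did not overlap. Array weights, or a fit to the day 12 arrays alone, placed Bace1 past the threshold at day 12 (0.27 and 0.26, limma adjusted p of 0.00452 and 0.0274), as background correction with neqc did at day 9 (0.67, adjusted p of 0.0443). The day 9 controls include the dim array, on which Bace1 was not detected.

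Adam10 differed by 0.05, 0.03 and 0.02 at days 5, 9 and 12, and the day 12 interval was -0.28 to 0.32. The second Adam10 probe that was kept gave -0.03, -0.15 and -0.08. Psen2 differed by 0.06, 0.08 and 0.15, and its day 12 groups did not overlap (7.27, 7.37 and 7.39 in the control, 7.45, 7.44 and 7.59 with CHD5 shRNA). Over 29 alternatives the day 9 difference of Psen2 went from -0.03 to 0.46 and changed sign in 2. The dim array of that day did not detect Psen2. Ncstn differed by -0.17, 0.09 and 0.06, and its groups did not overlap at day 5, with all 3 CHD5 shRNA arrays lower. The intervals of Psen2 and Ncstn stayed within -0.38 and 0.38 on all 3 days.

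**Figure D2:**
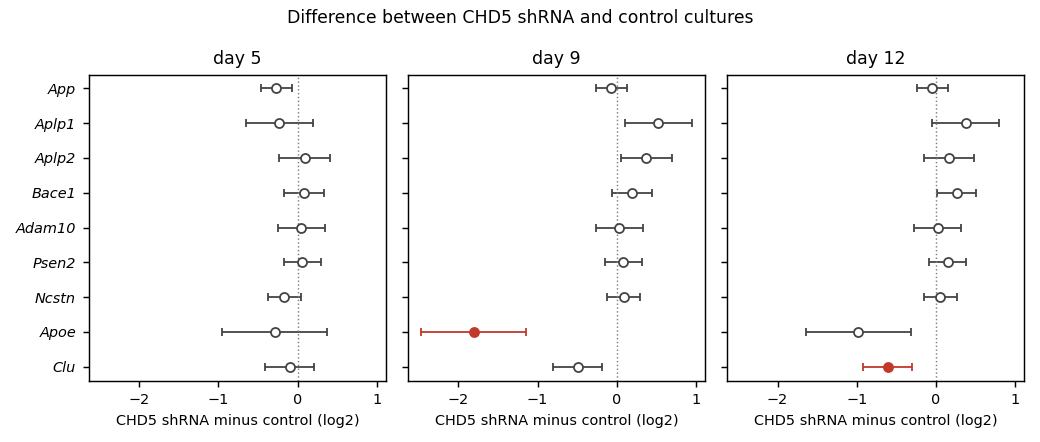
Difference between CHD5 shRNA and control (horizontal axis, log2) with its 95% interval for each gene at days 5, 9 and 12; filled red points had a limma adjusted p under 0.05. Called are Apoe at day 9 (-1.81) and Clu at day 12 (-0.61); of the uncalled precursor and secretase genes Aplp1 lies farthest from 0, at 0.52 on day 9.

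The apolipoproteins rose steeply with time in both cultures. Apoe lay at 8.16, 8.22 and 7.67 in the day 5 control arrays, at 12.03, 13.93 and 12.41 on day 9 and at 13.22, 13.36 and 13.07 on day 12. With CHD5 shRNA it lay at 7.66, 7.81 and 7.72 on day 5, at 11.21, 11.12 and 10.61 on day 9 and at 12.20, 12.25 and 12.26 on day 12. In the signals as deposited, control arrays went from 219 to 414 on day 5 to 10293 to 11192 on day 12, and CHD5 shRNA arrays from 212 to 293 to 4694 to 5425. No day 12 array overlapped a day 5 array.

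The rise of Apoe from day 5 to day 12 was 5.20 ± 0.31 (SE) in the control, or 36.8-fold, and 4.51 ± 0.31, or 22.8-fold, with CHD5 shRNA (limma adjusted p of 8.86e-10 and 1.19e-08). On this scale each was the largest rise among the 11079 probes. Most of it fell between days 5 and 9, where the control rose by 4.77 (limma adjusted p of 1.1e-08), or by 4.30 without the dim array, and the CHD5 shRNA cultures by 3.25 (2.47e-06). From day 9 to day 12 the difference was 0.43 in the control (limma adjusted p of 0.447) and 1.26 with CHD5 shRNA (0.0571). The dim array held the highest Apoe value of all 18. Without it both later steps were called, at 1.02 (limma adjusted p of 0.000661) and 1.28 (2.49e-05).

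Clu lay at 7.67, 7.17 and 7.11 in the day 5 control arrays, at 9.27, 8.88 and 9.18 on day 9 and at 10.42, 10.19 and 10.29 on day 12. With CHD5 shRNA it lay at 7.36, 7.20 and 7.09, at 8.82, 8.63 and 8.38, and at 9.70, 9.63 and 9.75. Each day stood clear of the one before in both cultures.

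Clu rose in every step. The control gained 1.79 from day 5 to day 9 and 1.19 from day 9 to day 12 (limma adjusted p of 1.59e-07 and 8.95e-05). The CHD5 shRNA cultures gained 1.39 and 1.08 (limma adjusted p of 6.76e-06 and 0.000612). Over the whole time the rise was 2.98 ± 0.15 (SE), or 7.90-fold, in the control and 2.47 ± 0.15, or 5.55-fold, with CHD5 shRNA.

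Apoe and Clu were the 2 of 8 genes called higher from day 5 to day 9 and from day 5 to day 12 in either culture, and none was called lower. Of all probes, 22.0% were called in the control from day 5 to day 9 and 23.6% from day 5 to day 12, against 9.33% and 17.0% with CHD5 shRNA. From day 9 to day 12 Clu alone was called, where 4.16% of all probes were called in the control and 1.37% with CHD5 shRNA. The background of the arrays was not subtracted, so these folds understate a change from a dim value. With neqc, which subtracts it, the rise from day 5 to day 12 in the control was 5.66 for Apoe and 3.70 for Clu.

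**Figure D3:**
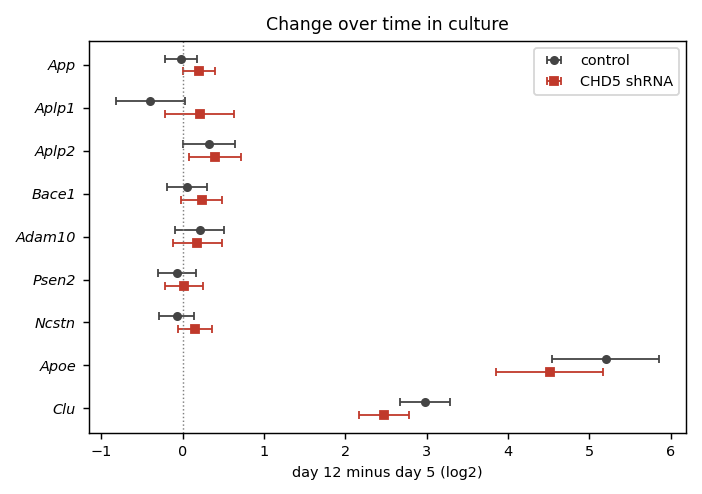
Change from day 5 to day 12 (horizontal axis, log2) with its 95% interval for each gene in control (circles) and CHD5 shRNA cultures (squares). Apoe and Clu lie at 5.20 and 2.98 in the control and at 4.51 and 2.47 with CHD5 shRNA, and all other genes lie between -0.40 and 0.40.

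With CHD5 shRNA, Apoe was called lower at day 9 and Clu at day 12, and each fell short of the threshold on the other of these days. At day 5 the Apoe groups overlapped, and its difference was -0.29 (95% interval -0.95 to 0.37, limma adjusted p of 0.999). At day 9 all 3 CHD5 shRNA arrays were below the 3 control arrays, by -1.81 ± 0.31 (SE), a 3.50-fold lower level (limma adjusted p of 0.00337), the second lowest difference among the 11079 probes after Lpl. Without the dim array the Apoe difference was -1.27 (limma adjusted p of 8.77e-05). Fitted to the day 9 arrays alone, the Apoe difference kept its size but was not called (adjusted p of 0.302).

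At day 12 the Apoe arrays again did not overlap, and the replicates were close, with an SD of 0.15 in the control and 0.03 with CHD5 shRNA. The difference was -0.98 ± 0.31 (SE), or 1.97-fold, with a limma adjusted p of 0.084, and so was not called. The SE is shared by all groups. When the dim array was left out, the day 12 difference of Apoe was -1.002 with an SE of 0.15, and it was called (limma adjusted p of 0.000119). It was also called in 9 of the 28 other alternatives, among them quantile normalization (-0.97, limma adjusted p of 0.000777) and the replicate block by letter (-0.98, 0.0466). The letters were not accepted as pairs at day 12.

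Clu showed the smaller and steadier decrease. Its difference was -0.10 at day 5 (95% interval -0.41 to 0.21), where the groups overlapped. At day 9 it was -0.49 (-0.80 to -0.19, limma adjusted p of 0.0555) and at day 12 -0.61 ± 0.15 (SE), or 1.52-fold lower (limma adjusted p of 0.0189), and on both days all CHD5 shRNA arrays were below all control arrays. With the replicate block by letter the day 9 Clu difference was called (limma adjusted p of 0.0184), as it was without the dim array (-0.62, 0.0092). The letters were not accepted as pairs at day 9. The day 12 call was lost with median centring (-0.65, limma adjusted p of 0.111), without the detection filter (-0.60, 0.0859) and when any array of day 12 other than control replicate b was left out (adjusted p of 0.0554 to 0.107).

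In all, 0 of 8 genes were called at day 5, where limma called 0.171% of all probes. At that day 1 of the 8, App, had an unadjusted limma p under 0.05, as did 627 of the 11079 probes. At day 9, 1 of 8 was called, Apoe, where 5.89% of all probes were called, 2.25% lower and 3.65% higher. At day 12, 1 of 8 was called, Clu, against 5.47% of all probes, 3.24% lower and 2.23% higher. The median difference of the 8 genes was -0.03, 0.06 and 0.04 at days 5, 9 and 12, beside 0.01, -0.02 and 0.01 over all probes. Groups did not overlap for 2 of 8 genes at day 5, 2 at day 9 and 5 at day 12, beside 11.0%, 20.6% and 38.2% of all probes. For a single gene the exact permutation test of 3 arrays against 3 (two-sided) cannot give a p below 0.1, and it gave 0.1 wherever the groups did not overlap.

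Whether the CHD5 shRNA difference itself changed between days was tested as an interaction. For Apoe it moved by -1.52 ± 0.44 (SE) from day 5 to day 9, by -0.69 from day 5 to day 12 and by 0.83 from day 9 to day 12, and none was called (limma adjusted p of 0.345, 0.979 and 0.994). For Clu the changes were -0.40, -0.51 and -0.11 (limma adjusted p of 0.727, 0.57 and 0.994). Without the dim array the change of the Apoe difference from day 5 to day 9 was -0.97 (limma adjusted p of 0.0544), that from day 5 to day 12 was -0.71 (0.0951) and that from day 9 to day 12 was 0.26 (0.935), and those of Clu were -0.52, -0.52 and 0.0011. With median centring the Apoe change from day 9 to day 12 was 0.14. Of the 8 genes 0 were called in the 3 interactions, where limma called 0.0% of all probes from day 5 to day 9, 0.153% from day 5 to day 12 and 0.0% from day 9 to day 12. At an unadjusted limma p under 0.05 the counts were 1, 1 and 0 of the 8, beside 809, 748 and 262 of the 11079 probes. The smaller rise of Apoe and Clu with CHD5 shRNA was therefore not shown to differ from the rise in the control at this threshold.

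Genes around these members were read from 5 lists. Their counts stand against 5.89% of all probes called at day 9 and 5.47% at day 12, which for lists of this length comes to about 1 gene, so a single call in a list is near the background. Among 15 kept of 19 listed genes of secretase subunits, sheddases and their transport, none was called at day 5 and 1 on each later day. Gga1, an adaptor that sorts BACE1 in endosomes, was higher than in the control at day 9 (0.72, limma adjusted p of 0.0132; 0.54 without the dim array), where its control mean had gone from 9.92 at day 5 to 9.28 and its CHD5 shRNA mean from 9.97 to 9.99. Adam17, another alpha-secretase and sheddase, was lower than in the control at day 12 (-0.42, limma adjusted p of 0.0183). It rose from day 5 to day 12 in both cultures, by 0.73 in the control and by 0.395 with CHD5 shRNA (limma adjusted p of 2.8e-05 and 0.0104). Over 29 alternatives the Gga1 call was lost in 3, among them leaving out CHD5 shRNA replicate c of day 9, and the Adam17 call in 6, among them leaving out control replicate a or any CHD5 shRNA array of day 12. The gamma-secretase subunits Aph1a, Aph1b and Psenen were not called on any day.

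Of 24 kept genes of APP adaptors and traffic, 1 was called at day 9 and 2 at day 12, a share near the 5.89% and 5.47% of all probes. Mapk8ip1, the scaffold JIP1 that links APP to kinesin, was higher with CHD5 shRNA at day 9 (0.46, limma adjusted p of 0.0132) and at day 12 (0.47, 0.00939). Dab2, an endocytic adaptor of lipoprotein receptors, was lower at day 12 (-0.58, limma adjusted p of 0.0306). With median centring 0 of the 24 were called at day 9 and 1 at day 12, and without the dim array 3 and 7, where 10.6% and 13.0% of all probes were called. The Mapk8ip1 call was lost in 5 of 29 alternatives at day 9, leaving out CHD5 shRNA replicate c included, and in 3 at day 12, leaving out control replicate c or CHD5 shRNA replicate b included. The Dab2 call was lost in 9, whichever array of day 12 was left out.

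Of 12 kept genes that bind or clear amyloid beta, 2 were called lower at day 9 and the same 2 at day 12, beside a list median of -0.24 on both days and 2.25% and 3.24% of all probes called lower. Without the dim array 5 of the 12 were called lower on each day, where 731 and 765 of the 11079 probes were called lower. Plat, tissue plasminogen activator, differed by -0.73 and -0.69 (limma adjusted p of 0.0278 and 0.0377). A2m, a protease inhibitor that binds amyloid beta and is taken up by LRP1, differed by -0.69 and -0.67 (limma adjusted p of 0.00482 and 0.00366) and was detected on 2 of 3 arrays of each group at day 9. The Plat call at day 9 was lost in 7 of 29 alternatives, leaving out control replicate a or c or CHD5 shRNA replicate a or c of that day included. At day 12 it was lost in 13, of which 11 left out an array: any of day 12, control replicate b or CHD5 shRNA replicate a or c of day 5, or CHD5 shRNA replicate a or c of day 9. The A2m call was lost in 3 and 1 alternatives, none of which left out an array.

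No receptor for these lipoproteins was called. Of 11 kept receptor genes, among them Vldlr, Lrp1 and Lrp8, 0 were called by limma on days 5, 9 and 12, and the list medians were -0.03, -0.08 and 0.02. Quantile normalization called 1 of the 11 lower at day 9.

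Of 14 kept genes of lipid efflux and other apolipoproteins, 1 was called lower at day 5, 3 at day 9 and 2 at day 12, and none higher, beside 2.25% and 3.24% of all probes called lower at days 9 and 12. Lpl, which hydrolyses the triglycerides of lipoproteins, was the one called on all 3 days (-1.32, -1.89 and -1.79, and -2.24 at day 9 without the dim array). Its day 5 call was lost with median centring (limma adjusted p of 0.27) and its day 9 call with only the arrays compared (0.199). Apoc1, a small apolipoprotein whose gene neighbours Apoe, was not detected on any day 5 array. It was lower with CHD5 shRNA at day 9 (-0.49, limma adjusted p of 0.00913) and at day 12 (-0.53, 0.00423). At day 9 Apoc1 was detected on 2 of 3 control arrays and on 1 of 3 CHD5 shRNA arrays, so that difference lies near the detection limit. At day 12 it was detected on all arrays of both groups. Abca1, which loads lipid onto APOE, was lower at day 9 (limma adjusted p of 0.0339), where it was detected on 2 of 3 control arrays and on 0 of 3 CHD5 shRNA arrays. The control was at least 1.09-fold higher, measured against the dimmest detected signal of each CHD5 shRNA array. The Abca1 call was lost in 9 of 29 alternatives, leaving out control replicate c or CHD5 shRNA replicate a or c included, and the Apoc1 call in 6 at day 9, leaving out CHD5 shRNA replicate c included, and in 3 at day 12.

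At days 9 and 12 astrocyte markers were lower with CHD5 shRNA as well. In bulk RNA fewer cells of a type and less RNA per cell cannot be told apart. Of 12 astrocyte markers on the array 11 were kept, the exception being Gjb6. Of these, 0 were called at day 5, 8 were called lower with CHD5 shRNA at day 9 and 8 at day 12, and none higher, where 2.25% and 3.24% of all probes were called lower. The list medians were -0.20, -0.84 and -0.74. Ndrg2 differed by -1.52 and -1.31 at days 9 and 12, Gja1, the gap junction protein connexin 43, by -1.29 and -0.84, S100b by -0.84 and -1.28, and Aldoc by -1.23 and -1.25. Leaving out 1 array ended the Gja1 call at day 12, whichever array of that day it was, and the Aldoc call at day 9 for CHD5 shRNA replicate c. Leaving out the dim array, the calls were 1, 8 and 9, beside 162, 1176 and 1444 of the 11079 probes. The day 9 differences of Ndrg2, Gja1, S100b and Aldoc were then -1.07, -0.91, -0.69 and -0.86. With median centring the calls were 0, 1 and 7, beside 2, 65 and 162 of all probes, so the day 9 count depended on the scaling.

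The mean normalised log2 signal over these 11 markers lay between 8.32 and 8.36 on the day 5 control arrays and between 8.06 and 8.10 on the day 5 CHD5 shRNA arrays. On day 9 it lay between 9.96 and 10.58 in the control and between 9.09 and 9.45 with CHD5 shRNA. On day 12 it lay between 10.45 and 10.53 in the control and between 9.71 and 9.77 with CHD5 shRNA. The groups thus stood apart on all 3 days. Array means of the neuron markers and of the endothelial and fibroblast markers did so too. The endothelial and fibroblast list held markers not detected with CHD5 shRNA at days 9 and 12. Array means of the oligodendrocyte lineage stood apart at days 9 and 12, of proliferation at days 5 and 12 and of microglia at day 12. No microglia marker was detected on any day 12 array, so the microglia means of that day lay at background. Neuron means were lower with CHD5 shRNA at day 5 and higher at day 9 (10.495 to 10.52, control 10.31 to 10.41) and day 12. The other lists were lower with CHD5 shRNA wherever they stood apart. From day 5 to day 12 all 11 astrocyte markers rose in the control and 10 rose with CHD5 shRNA. Aqp4 and Sox9 were not detected on any day 5 array. The part of the astrocyte marker shift in the Apoe and Clu values was not tested.

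The other cell types gave these values. Of 10 microglia markers on the array 2 were kept, Aif1 and Cd68, neither was called, and none of the 10 was detected on any array of day 12. Of 9 kept oligodendrocyte lineage markers 2 were called lower at days 9 and 12, among them Cnp, an enzyme of myelin (-0.58 and -0.71). Of 4 kept endothelial and fibroblast markers 2 were called lower on each of those days. Of the 4, Dcn was detected on no CHD5 shRNA array of days 9 and 12. Lum was kept through 1 control array of day 12 and was detected on no other, so values of both lie near the detection limit. Of 10 neuron markers, all detected on every array, Tubb3 was called higher at days 9 and 12 (0.55 and 0.53) and the others were not called. Of 5 proliferation markers none was called. Without the dim array 3, 1 and 1 of them were called lower at days 5, 9 and 12, beside 113, 731 and 765 of the 11079 probes. The Cnp call was lost without control replicate c or CHD5 shRNA replicate a or c at day 9 and without control replicate a at day 12. Tubb3 no longer passed at day 9 on leaving out CHD5 shRNA replicate a or c, nor at day 12 without control replicate b or c or CHD5 shRNA replicate b or c.

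**Figure D4:**
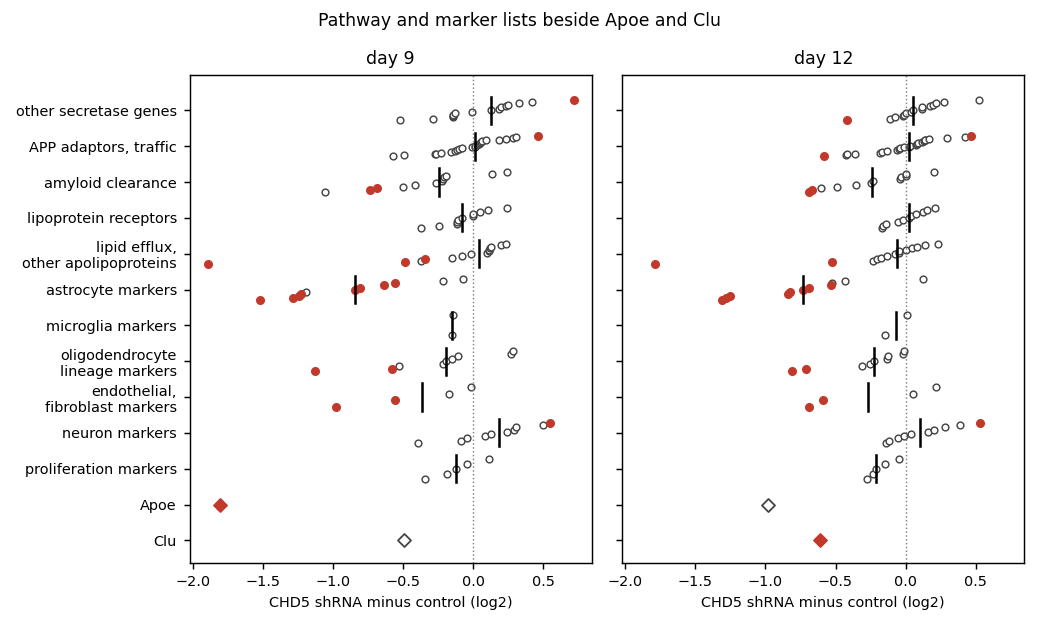
Difference between CHD5 shRNA and control (horizontal axis, log2) at days 9 and 12 for each kept gene of the pathway and marker lists (points; filled red where the limma adjusted p was under 0.05; vertical lines are list medians), with Apoe and Clu as diamonds. The astrocyte medians lie at -0.84 and -0.74, Clu lies at -0.49 and -0.61, and Apoe at -1.81 and -0.98.

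The genes whose normalised signal followed each member most closely over the 18 arrays were listed by Pearson's r, as a description. The arrays share days and viruses, so any gene that rises with time scores high. Apoe was closest to Asrgl1 (0.99), Ndrg2 (0.99) and Sparcl1 (0.99), and Clu to Hrasls3 (0.99), Gstm1 (0.99) and Slc39a12 (0.99). By Spearman's rho only Asrgl1 stayed among the 3 closest to Apoe, and none did for Clu. The precursor and secretase genes had looser neighbours. The closest were RGD1566359 for App (0.84), Ppp1r11 for Aplp1 (0.96), RGD1309605 for Aplp2 (0.93) and LOC362384 for Bace1 (0.93). Rab9b was closest to Adam10 (0.89), Apbb1 to Psen2 (0.83) and Ganab to Ncstn (0.74). By Spearman's rho the closest gene was another one for each of them except Psen2.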

How the data were processed

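Total RNA of 18 samples was hybridised to Illumina rat expression arrays. The deposited signal intensities are bead means that the authors extracted with GenomeStudio 1.1.1 without normalization or background subtraction, and the deposited detection p-values compare each probe with negative control beads. The 11079 of 22523 probes detected on 1 array or more (p-value up to 0.02) were kept. As in the study's methods, Z-scores of the log2 signals were formed within an array. They were rescaled to log2 units by the average SD, and limma 3.58.1 in R 4.3.3 was fitted to all 6 groups with 12 contrasts and Benjamini-Hochberg adjustment over all kept probes. Intervals are 95% intervals from the same fit. The number of arrays limits the precision.

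The members and lists were chosen with earlier results of these data known. All listed genes were named by their brightest probe. Of each pathway and marker list, at most 4 genes called in a contrast of CHD5 shRNA against control were named, by the largest difference, and for each gene of interest its 3 closest genes by Pearson's r. Receptor, gamma-secretase and microglia genes that were not called, and markers that were not detected, were named besides, after their values were seen. Replicate a was measured a second time on 6 arrays, and these measurements entered an alternative only. For the 9 genes the repeat differed by at most 0.53 (log2). The letters a, b and c were checked as pairs by correlating the deviations of same-lettered arrays from their group means. Day 5 gave correlations of 0.27, 0.17 and 0.38, day 9 gave 0.43, 0.15 and -0.20, and day 12 gave 0.05, 0.15 and 0.01. Pairing by letter was therefore accepted for day 5 only. The main fit used no pairing on any day, day 5 included, and the block by letter entered as an alternative. With the block none of the 9 genes was called at day 5. Alternatives covered normalization, background correction, filter, probe choice, arrays in the fit, weights, block, repeats and leaving out each array. The procedure was tested on simulated data. The slide of each array was not used here. Some listed genes are not reported here by name.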

Additional observations from a re-analysis of the deposited data

How the results depend on the processing

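The direction of every called difference of the 9 genes held in all alternatives. Of 2403 recomputed differences, 2321 stayed on their side of the threshold, 72 passed it anew, 10 lost it and 0 called ones changed sign. The rise of Apoe and Clu from day 5 to days 9 and 12 was called in every alternative run, in both cultures. The calls among the 8 genes moved more, and the cause was not tested. At day 9 (1 called, Apoe) 2 were called with quantile normalization, with the stricter detection filter (every array of a group) and with the replicate block by letter, either within days or across them, 3 with neqc and 0 with only the arrays compared. At day 12 (1 called, Clu) 2 were called with quantile normalization, neqc, the stricter filter and either replicate block, 3 with array weights or only the arrays compared, and 0 without the detection filter. With median centring 1 was called at day 12, but it was Apoe. From day 9 to day 12 in the control (1 called) the count was 2 with quantile normalization, median centring, neqc and the mean of both measurements, 3 with array weights and 0 with only the arrays compared. With CHD5 shRNA (1 called) it was 2 with quantile normalization, median centring, neqc, the stricter filter and the replicate block, and 3 with array weights or only the arrays compared. From day 5 to day 12 with CHD5 shRNA (2 called) array weights gave 6. The share of all probes called moved too: 5.47% at day 12 became 32.3% with array weights and 23.6% with only the arrays compared, 1.37% from day 9 to day 12 with CHD5 shRNA became 23.7% and 15.1%, and 17.0% from day 5 to day 12 with CHD5 shRNA became 45.1% with array weights. At day 9, 5.89% became 8.98% with quantile normalization, 7.84% with neqc and 0.0% with only the arrays compared. Leaving out 1 array gave 1 to 2 calls at day 9, 0 to 2 at day 12, 1 to 2 from day 9 to day 12 in either culture, 2 to 3 from day 5 to day 9 in the control, 2 in that step with CHD5 shRNA, 2 to 3 from day 5 to day 12 in either culture, and 0 at day 5 and in the interactions (where the dim day 9 control array was left out). The paired fits changed no other count of calls beyond those given. For the interactions, quantile normalization, median centring and neqc were chosen after seeing the data and gave 0 calls. Dim probes limit the secretase values, whose signals lay near background.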
